A study of Mus musculus with 4 samples.

Results

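The nuclei described here are mouse brain nuclei that carried transcripts of the vesicular glutamate transporter Slc17a7 together with those of Scn7a and Rspo2. A nucleus was a member if it had at least 500 unique molecular identifiers (UMIs, each standing for 1 captured RNA molecule), at least 300 genes and at most 5% mitochondrial UMIs. It also had at least 2 UMIs of Slc17a7, at most 1 UMI of Gad1 and Gad2 together, at least 1 UMI each of Scn7a and Rspo2, and none of Fezf2, Rspo1 or Adam33. There were 87 members among 4892 nuclei that met the same Slc17a7 and Gad limits (1.78%), and among 50595 nuclei kept in all (0.172%). The members were thus selected on the UMIs of these 8 genes, whose values are given as a description and without a test.

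The study compared ways of preparing single-nucleus RNA libraries from the brain without the cerebellum. All 4 groups were wild-type C57BL/6 mice of 10 weeks, and each group was 1 library. In the post-mortem groups the animal was killed by cervical dislocation before dissection. In the anaesthetised groups, which the labels call in vivo, the brain was taken by craniotomy under deep isoflurane. Either way, 10 minutes on dry ice froze the tissue, and nuclei were isolated from at most 50 mg. Nuclei were then used unfixed, or held in 80% methanol at -20 °C for 30 minutes before the droplet-based 3' assay. The labels do not say whether fixed and unfixed nuclei came from the same brain or how many animals went into a library. Neither a harvest effect nor a fixation effect can therefore be told apart from a difference between animals or tissue pieces. Values are given below in the order post-mortem unfixed, post-mortem methanol, anaesthetised unfixed, anaesthetised methanol.

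Slc17a7 loads glutamate into synaptic vesicles and marks most excitatory neurons of the cortex, hippocampus and basolateral amygdala. Scn7a encodes Nax, an atypical member of the voltage-gated sodium channel family that is known as a sensor of extracellular sodium. Rspo2 encodes R-spondin 2, a secreted protein that strengthens Wnt signalling by binding Lgr receptors and removing the ubiquitin ligases Znrf3 and Rnf43 from the cell surface. In the mouse annotation (GENCODE M21, build mm10) Scn7a lies on the minus strand at chr2:66673425-66784914, and Rspo2 on the minus strand at chr15:43020794-43170826.

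The 4 libraries held between 7649 and 17854 kept nuclei and between 64079961 and 82366500 UMIs in those nuclei. Barcodes shared between libraries numbered 61 to 209 per pair, and no member's barcode was among them. A doublet caller marked 0, 0, 4 and 5 members as doublets.

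Members were found in every library and were fewest in the post-mortem unfixed one. It held 4 of 1060 Slc17a7 nuclei (0.377%, exact Clopper-Pearson 95% interval 0.103 to 0.963). The post-mortem methanol library held 16 of 1131 (1.41%, 0.811 to 2.29), the anaesthetised unfixed library 21 of 1176 (1.79%, 1.11 to 2.72) and the anaesthetised methanol library 46 of 1525 (3.02%, 2.22 to 4.00). These intervals cover counting error only, and with 1 library per group no test of the shares was possible. Because 2 sparse genes had to be seen, a deeper nucleus could pass more easily. The median UMI count of all Slc17a7 nuclei was 7802, 11331, 6368.5 and 14426 in the 4 libraries, and the methanol libraries were the deeper ones at each harvest.

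Depth was then limited in 2 ways, both chosen after seeing the data. With each nucleus thinned at random to 6000 UMIs, 2 of 513, 4 of 542, 6 of 452 and 11 of 648 Slc17a7 nuclei met the rule (0.390%, 0.738%, 1.33% and 1.70%), and all 4 intervals overlapped. This left out 260, 44, 508 and 30 shallower Slc17a7 nuclei. Deeper nuclei that kept fewer than 2 UMIs of Slc17a7 after thinning also dropped out, so the nuclei counted were not the same set. With so few members, the overlap does not show that the shares were alike. Among nuclei of 4000 to 12000 UMIs, a range that limits depth without matching it, the shares were 0.348%, 0.806%, 1.84% and 1.24%, so the anaesthetised unfixed library had the highest share there, above the anaesthetised methanol one. The post-mortem unfixed interval (0.0719 to 1.01) still lay below the anaesthetised unfixed one (1.09 to 2.89) in that window. Thinned to 3000 UMIs, the rule found 0, 1, 1 and 2 nuclei, too few to read an order, and 0 of 327 allows a share of up to 1.12% by the exact interval.

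**Figure D1:**
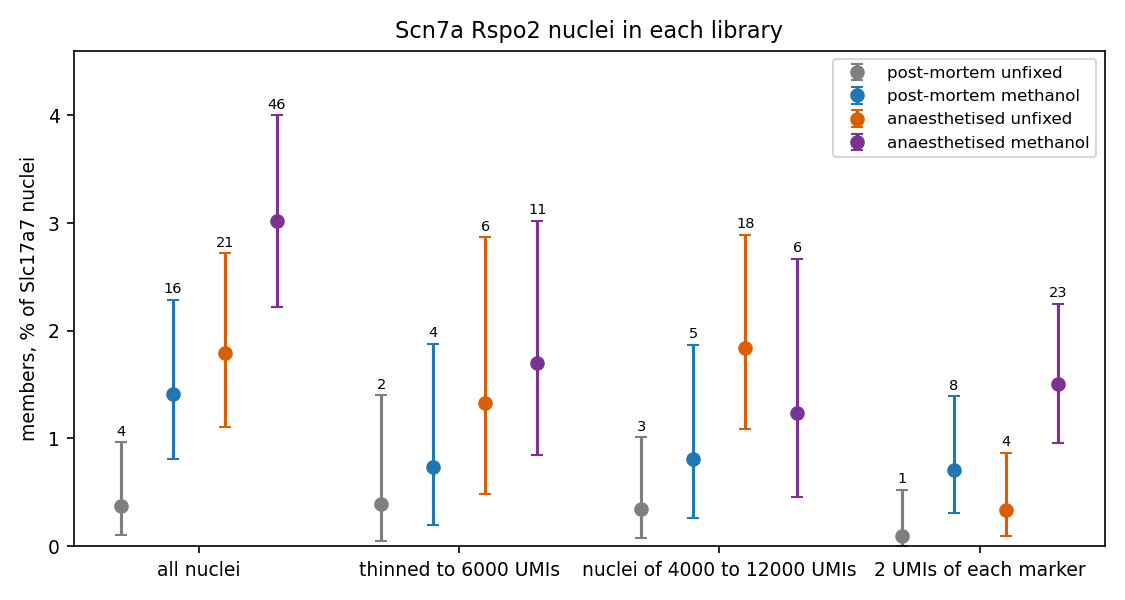
Share of Slc17a7 nuclei that met the rule in each of the 4 libraries (vertical axis, percent, starting at 0), for all nuclei, for nuclei thinned to 6000 UMIs, for nuclei of 4000 to 12000 UMIs, and with 2 UMIs of each marker required. Points are shares, bars are exact 95% intervals for counting error, and numbers are nuclei; the rise from 4 to 46 members in all nuclei narrows to 2 to 11 after thinning.

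The marker genes themselves were sparse. Levels are given as CPM, the UMIs of a gene scaled to a common total of UMIs per library and population. Scn7a stood at 3.90, 8.67, 8.39 and 8.61 CPM in Slc17a7 nuclei, against 3.41, 4.07, 4.04 and 4.31 CPM in GABA nuclei. It was seen in 2.74%, 5.84%, 3.91% and 7.28% of Slc17a7 nuclei. In GABA nuclei, which had median depths of 5303, 7547, 4119 and 8560.5 UMIs, it was seen in 1.89%, 2.63%, 1.73% and 2.88%. In the post-mortem unfixed library the interval of the first share (1.84 to 3.91) overlapped that of GABA nuclei (1.42 to 2.47), so the Scn7a signal there was not separable from the level in another neuron class. Rspo2 stood further apart, at 39.1, 56.0, 74.4 and 95.9 CPM in Slc17a7 nuclei against 7.12 to 9.96 CPM in GABA nuclei.

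Members held few UMIs of either marker. Their median was 1, 2, 1 and 2 UMIs of Scn7a and 4.5, 2.5, 1 and 3 UMIs of Rspo2, and 18 of the 87 members had exactly 1 UMI of each. Just outside the rule were 50 nuclei with 1 UMI of Slc17a7 and 12 with 2 or more UMIs of Gad1 and Gad2. Without the 3 negative genes the rule took 131 nuclei, of which 23 had Fezf2, 4 had Rspo1 and 26 had Adam33. Rspo2 was seen in 24.1%, 39.4%, 45.7% and 69.4% of Slc17a7 nuclei with Scn7a and in 18.0%, 25.2%, 28.2% and 43.6% of those without. At 3000 UMIs per nucleus only 4 to 7 nuclei per library still showed Scn7a, so no association of the 2 genes could be read at equal depth.

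The members carried several transcripts known from forebrain excitatory neurons. The synaptic vesicle protein Sv2b was seen in 86 of 87 and the kinase Camk2a in 85. Slc17a6, the transporter of most subcortical glutamatergic neurons, was seen in 1. Tbr1 of the same list of excitatory genes was seen in 8, Neurod2 in 30, Neurod6 in 49 and Nrgn in 58. Of the 7 tested genes of the list only Tbr1 was called, as lower than in the other Slc17a7 nuclei, beside 2.78% of all genes. Its log2 fold was -1.51 ± 0.49 (edgeR quasi-likelihood adjusted p = 0.0432), called in 4 of 12 alternatives. Markers of other cell types were present too, and their part in the results was not tested. Oligodendrocyte markers summed to 78.1, 54.5, 112 and 162 CPM in members and to 255, 220, 238 and 210 CPM in other Slc17a7 nuclei, lower in members in all 4 libraries. GABA interneuron markers summed to 182, 310, 295 and 137 CPM against 266, 211, 309 and 270, with Lhx6, Pvalb and Vip at 0 in members. Erbb4 gave 0, 67, 56 and 106 of the 7, 74, 63 and 128 interneuron UMIs in members. Astrocyte markers summed to 598, 302, 262 and 359 CPM in members and to 392, 381, 351 and 332 CPM in the others, higher in members in 2 libraries. Gfap and Gja1 were at 0 in members, while the glutamate transporter Slc1a2 was seen in 79. Slc1a2 gave 22, 71, 56 and 309 of the 23, 72, 56 and 334 astrocyte UMIs in members. Oligodendrocyte precursor markers summed to 493 to 624 CPM against 490 to 628, and microglial markers summed to 21.0 to 78.1 CPM against 60.2 to 87.2. Of the 24, 132, 120 and 459 precursor UMIs in members, 24, 126, 115 and 454 were Tnr. Medium spiny neuron markers summed to 667 to 1384 CPM in members and 877 to 1247 CPM in the others, higher in members in both unfixed libraries, with Drd2 at 0 in members. Of the 53, 159, 296 and 780 medium spiny UMIs in members, 50, 141, 286 and 752 were Pde10a. The precursor and medium spiny sums in members thus follow a single gene each rather than the list.

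Each population comparison below used UMIs summed per library and population, and tested them with edgeR's quasi-likelihood test with the library as a block. Adjusted p-values are Benjamini-Hochberg values over all genes tested, genes were called at an adjusted p under 0.05, and the 8 genes of the rule were left out. The markers came from an earlier grouping of these same nuclei by expression, so the calls describe how nuclei chosen in this way differ and are no independent evidence of a cell type. Members were also deeper than other Slc17a7 nuclei, with medians of 8864, 15037, 9272 and 17373 UMIs against 7799.5, 11294, 6332 and 14281. Their sums came to 38432, 238436, 213863 and 931074 UMIs, so the anaesthetised methanol library weighed most and the 4 post-mortem unfixed nuclei least.

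Against the other 4805 Slc17a7 nuclei, members had more of the long non-coding RNA Rmst, the hyaluronan receptor Cd44, the extracellular matrix protein Frem1 and the adhesion molecule Lsamp. They had less of the kainate receptor subunit Grik1, the homeobox gene Tshz2, the muscarinic receptor Chrm3 and the calcium-binding protein Calb1. Of 9127 genes tested, 250 were higher (2.74%) and 254 lower (2.78%), and the median log2 fold of all genes was -0.01. With only nuclei of 4000 to 12000 UMIs in both populations, a window that held 3, 5, 18 and 6 members, 30 genes were higher and 94 lower, so higher calls made up 24.2% of all calls against 49.6% before.

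Rmst showed the difference in each library. It stood at 286, 705, 393 and 548 CPM in members, from 11, 168, 84 and 510 UMIs, and at 73.1, 94.7, 112 and 132 CPM in the other nuclei. The lowest member library was above the highest of the other nuclei. The log2 fold was 2.26 ± 0.14 (SE, 4.81-fold; edgeR quasi-likelihood adjusted p = 5.75e-56), and Rmst kept its call in all 12 alternatives run. It was seen in 75 of the 87 members, and no single nucleus gave more than 5.43% of its UMIs.

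Lsamp, a cell adhesion molecule of the immunoglobulin family, stood at 9888, 9286, 11157 and 13357 CPM in members and at 2922, 3546, 5897 and 5959 CPM in the others. It was seen in all 87 members and was higher in each library. The log2 fold was 1.28 ± 0.13 (edgeR quasi-likelihood adjusted p = 2.73e-20), again called in all 12 alternatives. Pcdh15, a protocadherin best known from inner ear hair cells, reached a log2 fold of 1.22 ± 0.13 (adjusted p = 6.76e-18 by the same test).

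The other leading genes were sparse. Cd44 had 0, 6, 5 and 18 UMIs in members, or 0, 25.2, 23.4 and 19.3 CPM, against 1.12, 2.08, 1.35 and 3.01 CPM. It was seen in members of 3 libraries, and the post-mortem unfixed one held no UMI. Its log2 fold was 3.15 ± 0.48 (edgeR quasi-likelihood adjusted p = 5.25e-09), and it was called in all 11 alternatives that could test it. Frem1 had 0, 7, 8 and 49 UMIs, with a log2 fold of 2.64 ± 0.33 (adjusted p = 1.69e-13 by the same test). Among the 12 genes named by a rule for the largest smallest ratio over the libraries were also Vwa5b1, Susd5, the NADPH oxidase Nox4, D16Ertd472e, the mechanically gated channel Piezo1, Mfsd13b, the thyrotropin-releasing hormone receptor Trhr, the ubiquitin ligase Herc6 and Psg16. Psg16 belongs to a multigene family whose reads may be split between copies, so its value is uncertain. Piezo1 overlaps Ctu2 on the opposite strand, and whether counting used strand is not given in the sources used here.

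Of these 12 genes, 7 had no UMI in the post-mortem unfixed members, where the count of 0.5 added before taking ratios set the ratio. All 12 were still called when that library was left out. In the window of 4000 to 12000 UMIs only Rmst, Nox4 and Herc6 were called. Cd44 and D16Ertd472e were not tested there, and the other 7 kept log2 folds of 1.49 (Psg16) to 2.81 (Vwa5b1). Herc6 stood at 104, 96.5, 98.2 and 134 CPM against 34.6, 40.3, 43.3 and 42.2, a log2 fold of 1.51 ± 0.18 (edgeR quasi-likelihood adjusted p = 5.6e-15).

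Lower genes were led by Grik1, Robo3, Zfp536 and Tshz2. Grik1 gave 0, 1, 1 and 1 UMIs in members, or at most 4.68 CPM, while other Slc17a7 nuclei stood at 44.4, 36.0, 44.2 and 44.4 CPM. Members were low in the 3 libraries that gave a UMI, and the post-mortem unfixed members held too few UMIs to measure it. The log2 fold was -4.28 ± 0.52 (edgeR quasi-likelihood adjusted p = 1.03e-13). Tshz2 gave 0, 1, 1 and 6 UMIs in members against 35.2, 42.8, 94.0 and 103 CPM in the others (log2 fold -3.94 ± 0.36, adjusted p = 2.5e-24 by the same test). Robo3, an axon guidance receptor, gave 1 UMI in all members together.

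Chrm3 was abundant enough to be measured in each library. It stood at 338, 386, 262 and 230 CPM in members and at 1102, 1040, 741 and 699 CPM in the others, lower in all 4 by a similar factor. The log2 fold was -1.52 ± 0.15 (edgeR quasi-likelihood adjusted p = 3.64e-22), and Grik1, Tshz2 and Chrm3 were called in all 12 alternatives. Even so, 43 of the 87 members held Chrm3 UMIs, and 1 nucleus held 54. Plcb4, a phospholipase C that acts downstream of Gq-coupled receptors, had a log2 fold of -1.96 ± 0.23 (adjusted p = 4.18e-15). Fbxl7, Calb1, Tafa2, Plxdc1, Sox2ot and the sodium bicarbonate cotransporter Slc4a4 completed the 12 lower genes. Of these 12, 9 had no UMI in the post-mortem unfixed members, 11 were called without that library and 7 were called in the depth window.

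**Figure D2:**
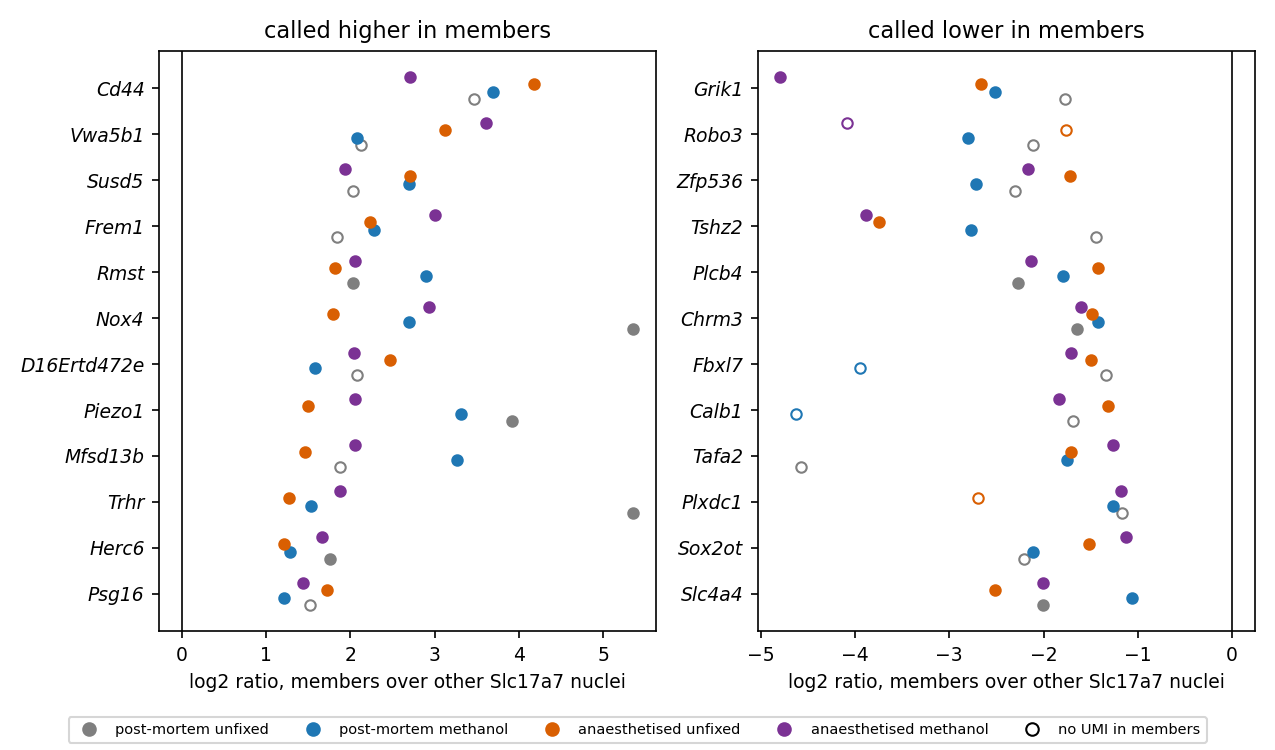
Log2 ratio of members over other Slc17a7 nuclei (horizontal axis) in each of the 4 libraries for the 12 named higher genes (left) and 12 named lower genes (right). Open points mark libraries whose members held no UMI, where the added 0.5 count sets the position; Rmst, Herc6, Chrm3 and Slc4a4 have a UMI in members of all 4 libraries.

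Genes that mark cortical layers and projection types moved in several directions. The counts of each list stand beside the 2.74% of all genes called higher and 2.78% called lower. Of 6 tested upper-layer intratelencephalic genes, 4 were lower in members than in other Slc17a7 nuclei (Cux1, Otof, Rasgrf2 and Calb1) and none was higher. Both tested genes of layer 5 extratelencephalic neurons were lower, with log2 folds of -1.97 ± 0.26 for the transcription factor Bcl11b and -3.90 ± 0.67 for the natriuretic peptide receptor Npr3. Fezf2 is on this same list, and the rule removed nuclei with Fezf2 from the members but not from the other nuclei. Lower genes that go with Fezf2 are therefore no independent result, and the part of this selection in the folds was not tested. Of 4 tested genes of layer 6 corticothalamic neurons, 3 were lower: Foxp2 (log2 fold -2.06 ± 0.25), Tle4 (-1.86 ± 0.24) and the sulfatase Sulf1. Of 3 tested near-projecting genes Trhr was higher and Tshz2 lower, and of 4 Car3 and claustrum genes Synpr was higher. Outside these cortical lists, Lmo3 was lower of 2 tested basolateral amygdala genes, a list that also holds the rule gene Rspo2. None of 3 tested hippocampal pyramidal genes was called.

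Genes of layer 4 and of layer 5 intratelencephalic neurons were split. Rspo1 and Adam33 are also on the layer 4 list, and the rule removed nuclei with them from the members only. Of 3 tested layer 4 genes Il1rapl2 was higher and Brinp3 lower (log2 fold -0.97 ± 0.15), and of 4 layer 5 intratelencephalic genes Etv1 and Deptor were higher and Parm1 lower (-1.46 ± 0.29). Il1rapl2, a synaptic adhesion molecule, stood at 572, 524, 1075 and 1025 CPM in members against 336, 490, 475 and 521 CPM, a log2 fold of 0.79 ± 0.14 (edgeR quasi-likelihood adjusted p = 5.36e-07). The transcription factor Etv1 had a log2 fold of 0.62 ± 0.18 and the mTOR inhibitor Deptor one of 0.73 ± 0.21, but these were called in only 5 and 4 of 12 alternatives. Rorb, a nuclear receptor of layer 4, stood at 52.0, 461, 229 and 375 CPM against 306, 289, 134 and 116 CPM. It was below the other nuclei in the post-mortem unfixed library and above them in the other 3, and was not called (adjusted p = 0.676 by edgeR's quasi-likelihood test).

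Single nuclei combined these genes. Il1rapl2 was seen in 79 of the 87 members, Rorb in 66, Deptor in 49 and Etv1 in 48. Rorb and Etv1 were seen together in 42 members, Rorb and Deptor in 46, and Rmst and Il1rapl2 in 71. Of the genes of other layers, Cux2 was seen in 37, Foxp2 in 20 and Bcl11b in 20. The corticothalamic gene Hs3st4 was seen in 55 members, at 650, 256, 496 and 101 CPM, lowest in the anaesthetised methanol library. All 25 of its post-mortem unfixed UMIs came from 1 nucleus. Nr4a2 was seen in 5 members, and 1 of them held 10 of its 20 UMIs.

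**Figure D3:**
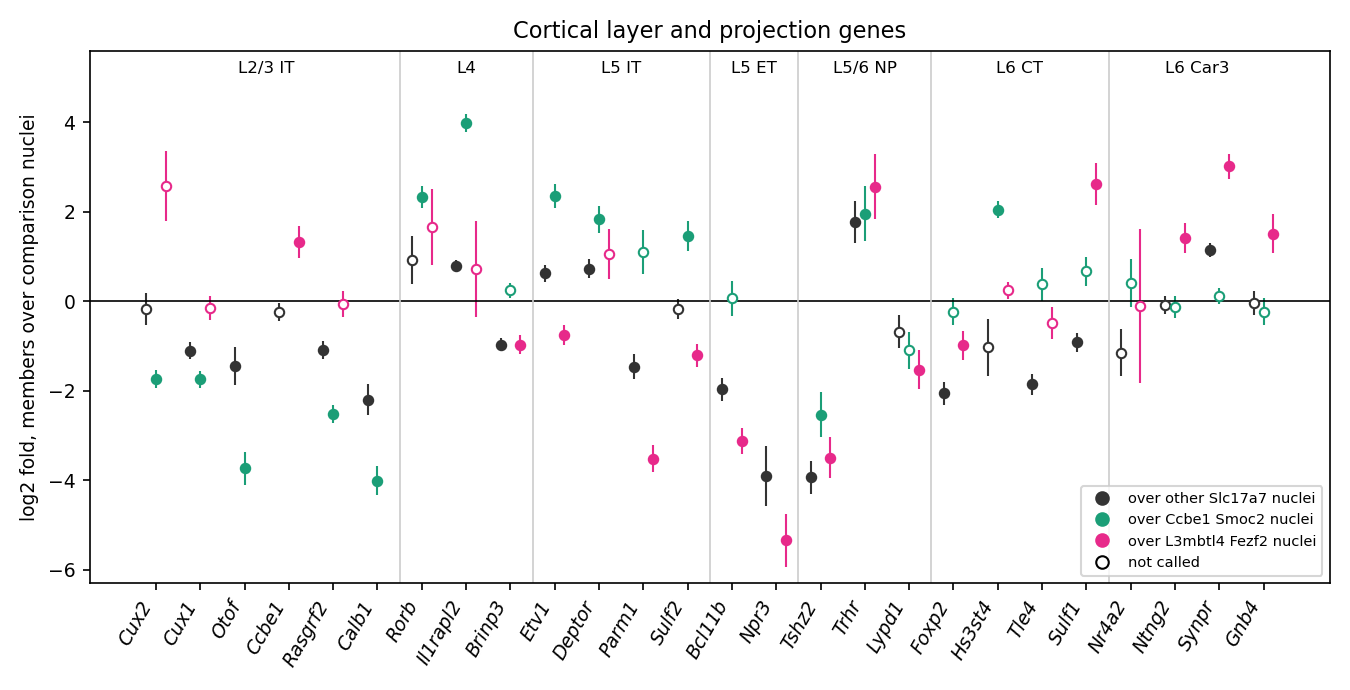
Log2 fold of members over other Slc17a7 nuclei, Ccbe1 Smoc2 nuclei and L3mbtl4 Fezf2 nuclei (vertical axis) for genes that mark cortical layers and projection types, grouped along the horizontal axis (IT intratelencephalic, ET extratelencephalic, NP near-projecting, CT corticothalamic). Bars are standard errors from edgeR and open points were not called; Calb1 lies at -2.20 over other Slc17a7 nuclei and at -4.01 over Ccbe1 Smoc2 nuclei, and Bcl11b at -3.12 over L3mbtl4 Fezf2 nuclei.

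Among sodium channel genes, 1 of 9 tested was higher and none lower, beside 2.74% higher and 2.78% lower among all genes. Scn9a, which encodes Nav1.7, stood at 52.0, 21.0, 32.7 and 43.0 CPM in members and at 29.7, 18.3, 22.0 and 20.8 CPM in the others, above them in each library. Its log2 fold was 0.86 ± 0.27 (edgeR quasi-likelihood adjusted p = 0.0261), but it was called in only 6 of 12 alternatives, and without the anaesthetised methanol library its adjusted p was 0.939. Scn9a (chr2:66480080-66634962) is the neighbour of Scn7a on the same strand, with 38462 bases between them. Reads past an annotated end could reach a neighbouring gene, and their part in these UMIs was not tested.

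No tested gene of the R-spondin and Wnt receptor complex (0 of 6) or of Wnt signal transduction (0 of 12) was called. Among all genes 2.74% were higher and 2.78% lower, so 0 calls in lists this short are near the share of all genes. The R-spondin receptor Lgr4 had a log2 fold of 0.04 ± 0.29, Znrf3 one of 0.41 ± 0.18 and the related ligand Rspo3 one of -0.25 ± 0.20. Rnf43 and Lgr5 were too sparse to test, with 3 and 7 UMIs in all members. Of 5 tested Wnt ligands and inhibitors, Wnt7b was higher, with 1, 2, 3 and 18 UMIs in members and a log2 fold of 1.42 ± 0.45 (edgeR quasi-likelihood adjusted p = 0.0287).

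Receptor and adhesion genes moved in both directions, against 2.74% higher and 2.78% lower among all genes. Of 15 tested ionotropic glutamate receptor genes, Gria4 was higher and Gria3, Grik1 and Grik3 were lower. Of 6 metabotropic ones, Grm3 and Grm8 were higher, and Grm8 stood at 1197, 960, 1146 and 1200 CPM against 473, 549, 722 and 834 CPM. Of 29 tested potassium channel genes, Kcnb2 and Kcnh1 were higher and 4 were lower. Of 20 tested cadherins 3 were higher and 5 lower, and of 39 axon guidance genes 4 were higher and 9 lower. Trpc6, a cation channel, was higher by 1.28 ± 0.16 and the vesicle protein Synpr by 1.14 ± 0.16 on the log2 scale. In the post-mortem unfixed library, however, with 2 and 1 UMIs in members, both were below the others. Neither gene was called against the Ccbe1 Smoc2 nuclei described below.

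Immediate early genes, which neurons switch on within minutes of activity, were lower than in other Slc17a7 nuclei where they were called. Of 16 tested, Junb, Arc, Nr4a3, Btg2 and Homer1 were lower and none was higher, with a median log2 fold of -0.70. Among all genes 2.78% were lower and 2.74% higher. Against the Ccbe1 Smoc2 nuclei described below, 2 of 16 were lower, with a median of 0.05. Against L3mbtl4 Fezf2 nuclei 1 was higher and 1 lower, with a median of -0.35. The low level was thus not particular to members. Summed over the list, members stood at 624, 621, 393 and 705 CPM and the other nuclei at 538, 753, 798 and 1177 CPM. Members were below the others in 3 libraries and above them in the post-mortem unfixed one. Nr4a3 had 0, 0, 3 and 12 UMIs in members (log2 fold -2.11 ± 0.36, edgeR quasi-likelihood adjusted p = 4.29e-07). Junb was called in only 3 of 12 alternatives. None of 65 ribosomal protein genes and none of 41 respiratory chain genes was called.

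Levels were also summed by which of the 2 markers a nucleus held. Like members, nuclei with Scn7a only, with Rspo2 only or with neither held none of Fezf2, Rspo1 and Adam33. The genes were those named from the comparison of members with other Slc17a7 nuclei. Members at an extreme were therefore favoured by the choice of genes and are no further result. Over the 4 libraries summed, Rmst stood at 544 CPM in members, 319 in nuclei with Scn7a only, 128 in those with Rspo2 only and 78.6 in those with neither. Within libraries, members were above Scn7a-only nuclei after methanol (705 against 214 and 548 against 401 CPM) and slightly below them unfixed (286 against 300 and 393 against 433 CPM). Frem1 stood at 45.0, 19.4, 8.15 and 3.42 CPM in the sums. It kept that order in 3 libraries and had no UMI in post-mortem unfixed members, against 18.0 CPM with Scn7a only. Chrm3 was low where Scn7a was present, with 264 CPM in members and 386 with Scn7a only, and stood at 917 with Rspo2 only and 932 with neither. Grik1 and Tshz2 were lowest in members, at 2.11 and 5.63 CPM. With Rspo2 only they stood at 14.3 and 17.6 CPM, and with Scn7a only at 33.2 and 92.4 CPM. In the anaesthetised unfixed library that last order turned, with 13.3 and 19.0 CPM with Rspo2 only against 5.85 and 11.7 CPM with Scn7a only. These are sums over nuclei of unequal depth and number, given without a test.

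**Figure D4:**
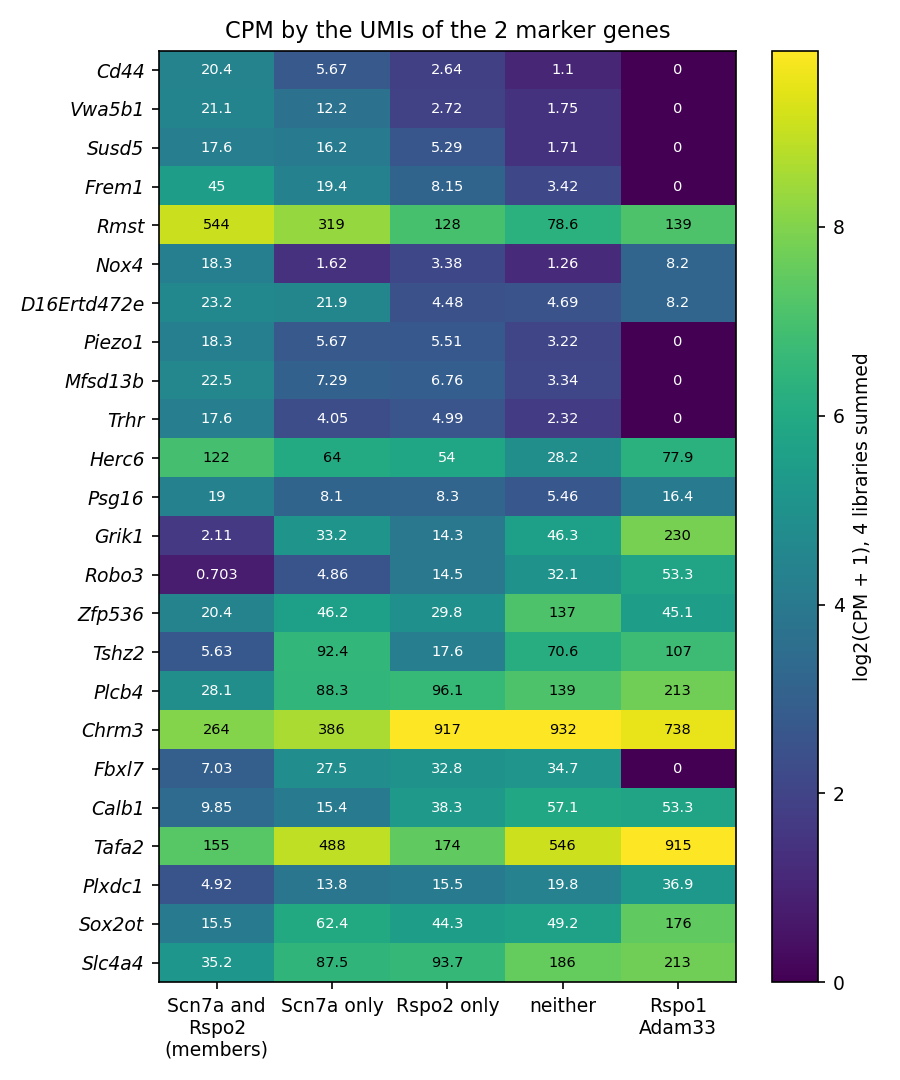
CPM of the 24 named genes, 4 libraries summed, in members, in Slc17a7 nuclei with Scn7a only, with Rspo2 only or with neither, and in Rspo1 Adam33 nuclei (columns). The genes were chosen by their calls in members, which favours members at an extreme. Cells print CPM and colours show log2(CPM + 1); in these sums Rmst falls from 544 to 78.6 over the first 4 columns, while in both unfixed libraries taken alone it was slightly higher with Scn7a only than in members, and Chrm3 rises from 264 to 932.

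The members were next compared with nuclei that carried Ccbe1 and Smoc2 and none of Scn7a, Rspo2, Fezf2, Rspo1 and Adam33. There were 32, 33, 78 and 82 such nuclei. Relative to them, members had more of the layer 4 and layer 5 genes Il1rapl2, Rorb and Etv1 and less of the upper-layer genes Cux2, Calb1 and Otof. Of 9072 genes tested, 371 were higher (4.09%) and 363 lower (4.00%), with a median log2 fold of -0.03.

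Il1rapl2 separated the groups in each library, at 572, 524, 1075 and 1025 CPM in members and 19.2, 82.2, 72.5 and 36.7 CPM in Ccbe1 Smoc2 nuclei. The log2 fold was 3.99 ± 0.20 (edgeR quasi-likelihood adjusted p = 8.44e-77). Without the post-mortem unfixed library the fold was 3.98 and the adjusted p 0.00624 by the same test. Rmst was higher by 3.03 ± 0.19, Etv1 by 2.35 ± 0.27, Rorb by 2.33 ± 0.24, Hs3st4 by 2.04 ± 0.19 and Deptor by 1.83 ± 0.30 on the log2 scale. Rorb was the exception in the post-mortem unfixed library, at 52.0 against 67.0 CPM. Cd44 had 29 UMIs in members and 0 in Ccbe1 Smoc2 nuclei, at least 17.0-fold higher when the 0 is taken as 3 counts over the group.

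All 5 tested upper-layer genes were lower. Ccbe1 is on this same list and was required in the comparison nuclei, so lower upper-layer genes were favoured by the choice of nuclei. The part of this selection in the folds was not tested. Calb1 gave 0, 0, 2 and 12 UMIs in members, up to 12.9 CPM, against 70.2, 212, 88.8 and 171 CPM (log2 fold -4.01 ± 0.32, edgeR quasi-likelihood adjusted p = 9.61e-33). Otof, which encodes otoferlin, gave 11 UMIs in members, all from the anaesthetised methanol library, against 261. Cux2 fell by 1.74 ± 0.20, Cux1 by 1.75 ± 0.20 and the exchange factor Rasgrf2 by 2.52 ± 0.21 on the log2 scale. Chrm3 stood at 338, 386, 262 and 230 CPM against 1462, 1288, 1066 and 1143 CPM, a log2 fold of -2.07 ± 0.18. Of the 12 named higher genes 11 and of the 12 lower genes 12 were called without the post-mortem unfixed library, and 11 of each were called in the depth window. The exception without that library was Zfp804b (adjusted p = 0.17 by edgeR's quasi-likelihood test), a zinc finger gene at 2.98 ± 0.19. Among the other named higher genes were Sccpdh, the neurturin receptor Gfra2, the exchanger Slc24a3, Abcb10, the opsin Opn3, Hs3st5 and Fstl5.

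The last comparison was with nuclei that carried L3mbtl4 and Fezf2, the latter a transcription factor of subcortically projecting deep-layer neurons, and none of Scn7a, Rspo2, Rspo1 and Adam33. There were 13, 12, 28 and 64 such nuclei. Members had more Rmst, Smoc2, Synpr and Trpc6 and less Bcl11b, Npr3, Tcerg1l and Reln. Fezf2 was required in the comparison nuclei and excluded in members, so lower genes that go with Fezf2 were favoured by the choice of nuclei. Of 9012 genes tested, 350 were higher (3.88%) and 366 lower (4.06%), with a median log2 fold of -0.02.

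Rmst stood at 286, 705, 393 and 548 CPM in members and 30.8, 23.7, 17.9 and 22.0 CPM in L3mbtl4 Fezf2 nuclei, with no overlap between the groups (log2 fold 4.48 ± 0.26, edgeR quasi-likelihood adjusted p = 1.39e-54). Smoc2, a secreted matrix protein, had 2, 29, 13 and 95 UMIs in members against 0, 2, 2 and 8 (log2 fold 3.88 ± 0.40). Trpc6 was higher by 3.54 ± 0.31 and Synpr by 3.02 ± 0.28. Neither was called against Ccbe1 Smoc2 nuclei, where Trpc6 had a log2 fold of -0.02. Zdhhc22, Dnah14, Herc6, Piezo1, Mei1, the laminin chain Lama4, Wdr95, Sulf1, Twist2 and Cd44 were the other named higher genes. Dnah14 overlaps Lbr on the opposite strand.

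Bcl11b stood at 52.0, 21.0, 46.8 and 11.8 CPM in members and 191, 154, 194 and 205 CPM in L3mbtl4 Fezf2 nuclei, lower in each library (log2 fold -3.12 ± 0.29, edgeR quasi-likelihood adjusted p = 4.13e-23). Tcerg1l gave 0, 0, 2 and 2 UMIs in members against 28, 16, 45 and 177 (log2 fold -5.37 ± 0.44). The log2 fold was -5.35 ± 0.59 for Npr3, -3.55 ± 0.36 for the extracellular glycoprotein Reln, -3.70 ± 0.57 for the repressor Bcl6 and -3.06 ± 0.33 for the adrenergic receptor Adra1a. Of 4 tested genes of the Car3 and claustrum list, 3 were higher (Ntng2, Synpr and Gnb4), while Car3 itself had no UMI in any member. Against Ccbe1 Smoc2 nuclei 0 of 4 genes of this list were called, with a median log2 fold of -0.01. Against other Slc17a7 nuclei only Synpr was. Of 4 tested layer 5 intratelencephalic genes, 3 were lower than in L3mbtl4 Fezf2 nuclei (Etv1, Parm1 and Sulf2) and none was higher. Their median log2 fold was -0.98, and 4.06% of all genes were lower. Summed, this list stood at 130, 222, 402 and 216 CPM in members and at 696, 692, 344 and 570 CPM in L3mbtl4 Fezf2 nuclei. Members were above them in the anaesthetised unfixed library only. Etv1 had a log2 fold of -0.75 ± 0.22, a call kept in 6 of 12 alternatives. In the depth window 5 of 12 higher and 6 of 12 lower named genes were called.

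Fixation and harvest were compared within members on summed UMIs, with no test because each group was 1 library. The 4357 genes measured had a mean of at least 10 CPM and at least 50 UMIs. With 0.5 counts added, 79 of these (1.81%) had a ratio of 2-fold or more upward after methanol at both harvests, and 62 (1.42%) had one downward. Where post-mortem unfixed members held no UMI the added count sets that ratio, and with 1 count added 35 were upward. The exact 95% counting interval lay beyond no change in both pairs for 7 of the higher and 21 of the lower genes.

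Plcxd3, a phospholipase C-like protein, gave 9, 9, 42 and 23 UMIs, or 234, 37.7, 196 and 24.7 CPM, low in both methanol libraries. Single nuclei gave 77.8% and 54.8% of its UMIs in the post-mortem and anaesthetised unfixed libraries. Its log2 ratios were -2.63 (-4.14 to -1.13) post-mortem and -2.98 (-3.79 to -2.22) under anaesthesia. Zfpm2, a cofactor of GATA factors, stood at 442, 41.9, 178 and 61.2 CPM, with ratios of -3.37 and -1.54, and 1 nucleus gave 88.2% and 55.3% of its UMIs in the respective unfixed libraries. The counting intervals do not cover such differences between nuclei. Glp2r, Nrp1, Coro7, Zcwpw2 and AY036118 were also lower with intervals beyond no change in both pairs, whereas mt-Cytb had an interval that reached 0.79 in the post-mortem pair. Of these, Glp2r, Coro7, Zcwpw2 and AY036118 overlap annotated genes on the opposite strand, and whether counting used strand is not known. Rmst, Tshz2, Chrm3, Cep112 and Gpc5 are among the other named genes with such an overlap. All 8 named higher genes had no UMI in the post-mortem unfixed members, and none had a bound of 2-fold there. Among them the actin gene Actb had 0, 30, 7 and 126 UMIs, at least 1.61-fold higher after methanol post-mortem with 3 counts as the floor, and its log2 ratio under anaesthesia was 1.95 (0.96 to 3.39). Arl6ip1 had 0, 23, 2 and 89 UMIs. For Lca5, Slc35b3, Dnajc24, Slc16a11 and Enpp5 the bound in the post-mortem pair did not reach 1.

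Between harvests, anaesthetised members exceeded post-mortem members by 2-fold or more for 30 genes (0.689%), counting only genes that did so in the unfixed and the methanol pair alike. The reverse held for 23 genes (0.528%), and with 1 count added 14 were upward. Intervals lay beyond no change in both pairs for 6 and 5 of them. Cep112 stood at 26.0, 71.3, 257 and 290 CPM, with log2 ratios of 2.73 (0.77 to 8.63) and 1.98 (1.32 to 2.82). Gpc5, a glypican of the cell surface, had 0, 21, 58 and 290 UMIs, and both anaesthetised libraries were high. Olfm3, a secreted olfactomedin, stood at 364, 319, 103 and 41.9 CPM, with ratios of -1.84 (-2.86 to -0.74) and -2.92 (-3.52 to -2.35). All 14 of its post-mortem unfixed UMIs came from 1 nucleus, and 1 gave 42.1% of those in the post-mortem methanol library. Bmpr1b, a bone morphogenetic protein receptor, stood at 338, 155, 88.8 and 40.8 CPM, with ratios of -1.95 and -1.93, and 1 nucleus gave 69.2% of its post-mortem unfixed UMIs. A change within members and a different mix of nuclei passing the rule cannot be told apart in these sums.

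Among the 87 members, the genes with the largest variance relative to their mean at 2000 UMIs per nucleus, in all 4 libraries, were Malat1, Lsamp, Pcdh9, Ptprd, Dpp10, Kcnip4, Rbfox1, Sgcz, Cntn5, Pcdh15, Ncam2 and Lrrtm4. Malat1, a nuclear long non-coding RNA, had a variance-to-mean ratio of 5.45 or more in each library, and Lsamp one of 4.46 or more, where counting alone gives 1. These are abundant transcripts, and no split of the members into groups was attempted.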

How the data were processed

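Deposited matrices of raw UMI counts per gene and nucleus (32285 genes, 50838 barcodes, 4 libraries) were used as the authors made them. The submitters' processing notes name build mm10, and the aligner and counter are not given in the sources used here. Members were found by the rule, doublets were marked with Scrublet in scanpy 1.11.5 at an expected rate of 6%, and UMIs were summed per library and population. Populations were compared with edgeR 4.0.16 (quasi-likelihood, TMM, library block; R 4.3.3), with DESeq2 1.42.0 as an alternative. The fits were tested on simulated data with 200 changed genes per comparison, 2-fold and 4-fold in equal numbers. For other Slc17a7, Ccbe1 Smoc2 and L3mbtl4 Fezf2 nuclei, 38, 40 and 15 of the 2-fold changes were recovered. For the 4-fold changes the numbers were 86, 81 and 78. Most 2-fold changes were thus missed, and a gene without a call may still differ. The libraries may be technical or animal replicates of a population contrast, so p-values cover no spread beyond that between libraries. Dispersion was estimated with information shared over genes, so a very small p-value does not come from 4 libraries alone. Such values also depended on the libraries used. Without the post-mortem unfixed one, Rmst against other Slc17a7 nuclei had an edgeR quasi-likelihood adjusted p of 1.68e-06. Named genes were the 12 called genes per direction with the largest smallest ratio over the 4 libraries and the same sign in each, with a mean CPM of at least 10, plus up to 4 members per list by level and up to 4 by fold, 8 per direction for fixation and harvest, and 12 for variation. Genes named only Gm or Rik were left out. Some genes that met these rules are not reported here. Members, rule and gene lists were chosen with earlier results of these data known. Alternatives changed tool, scaling, filter, depth window, doublets, block, rule limits and libraries.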

Additional observations from a re-analysis of the deposited data

How the results depend on the processing

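The shares of members differed between depth settings and rules. Thinned to 3000 UMIs they were 0%, 0.474%, 0.257% and 0.806% in the order used above, and with 2 UMIs of each marker 0.0943%, 0.707%, 0.340% and 1.51%. Thinning to 6000 UMIs gave 0.738% and 1.70% in the post-mortem and anaesthetised methanol libraries, the window of 4000 to 12000 UMIs 0.806% and 1.24%, and a rule without the negative genes 2.30% and 5.05%. Counts of genes higher and lower fell to 95 and 81 (other Slc17a7 nuclei), 159 and 143 (Ccbe1 Smoc2) and 121 and 141 (L3mbtl4 Fezf2) with DESeq2, to 30 and 94, 107 and 178, and 29 and 31 in the depth window, and to 43 and 40, 155 and 144, and 182 and 196 without the library block. Leaving out 1 library gave 84 to 232 higher and 89 to 224 lower, 136 to 387 and 159 to 328, and 108 to 319 and 157 to 307. The lowest counts were those without the anaesthetised methanol library, and 163 genes were higher than in other Slc17a7 nuclei without the post-mortem methanol one. With 1 UMI of Slc17a7 as the limit, a setting chosen after seeing the data like the rule without negative genes and the thinning to 6000 UMIs, 576 genes were lower than in Ccbe1 Smoc2 nuclei. Adding 1 count instead of 0.5 left 35 genes higher after fixation and 14 by harvest, and thinning members to 3000 UMIs left 5 higher and 3 lower after fixation and 11 and 2 by harvest. The causes were not tested, except that fewer nuclei or UMIs entered the thinned, windowed and left-out settings. The direction of 1 named gene turned: Tshz2 against Ccbe1 Smoc2 nuclei was 0.99 on the log2 scale in the depth window, against -2.54. Of the single-gene values, 157 lost their call in the depth window, 108 with DESeq2 and 127 without the block. With 4 post-mortem unfixed members and 38432 UMIs, genes below about 3 counts there could not be measured.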
